A study of Mus musculus with 4 samples.

Results

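Autosomal imprinted genes of the mouse were examined in ribosome footprints of day 10 testes, in 2 Eif5 cKO samples and 2 control samples. Their members were fixed by name: 38 genes, of which 34 had a row in the deposited table of 14984 genes. The 4 without a row (Usp29, Rtl1, Magel2 and Snurf) were not analysed here, and every row of the table held at least 10 reads over the 4 libraries. By the parental copy expressed where they are imprinted, 23 members are classed as paternally expressed and 13 as maternally expressed. Some, such as Nap1l4, Cd81 and Ube3a, are imprinted mainly in other tissues. The classes therefore do not state which copy is expressed in testis. Gnas and Grb10 form a class of their own, because in each of them the expressed allele depends on the promoter or the tissue. In the Eif5 cKO animals, floxed Eif5 (Eif5fl/fl) was deleted in germ cells by a Stra8-Cre transgene. The transgene acts in spermatogonia, so the somatic cells of the testis kept Eif5 by design. The genotype of the controls is not given in the labels used here, nor is it stated whether each sample was a different mouse or a pool. Error estimates therefore describe how these libraries varied, and that variation may be technical.

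An imprinted gene is read mainly from the chromosome inherited from one parent, because DNA methylation laid down in the egg or the sperm precursor marks one copy for silencing. The marks are erased in primordial germ cells and set anew, in the male germ line already before birth, so at day 10 the testis holds spermatogonia with paternal marks beside somatic cells that carry one maternal and one paternal copy. Imprinted genes lie in clusters, often with a noncoding RNA read from the opposite allele, and many act in fetal growth: paternally expressed genes such as Igf2 promote it and maternally expressed genes such as Igf2r and Cdkn1c restrain it. Footprints were counted for whole genes, so the parental origin of a read was not measured here.

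Promoter windows of RefSeq (GRCm38.p6), each 300 bases long with 250 before and 50 after an annotated start, are shown for the member that passed the test (Gnas) and for members discussed by their locus (Dlk1, Meg3 and Peg3). Gnas has several starts with different imprints that feed a single row of the table, and its most upstream and most downstream windows are given. Capitals mark CpG dinucleotides, the sites of DNA methylation, in the windows of Gnas and Dlk1.
Gnas, most upstream start, chr2:174284070-174284369, plus strand: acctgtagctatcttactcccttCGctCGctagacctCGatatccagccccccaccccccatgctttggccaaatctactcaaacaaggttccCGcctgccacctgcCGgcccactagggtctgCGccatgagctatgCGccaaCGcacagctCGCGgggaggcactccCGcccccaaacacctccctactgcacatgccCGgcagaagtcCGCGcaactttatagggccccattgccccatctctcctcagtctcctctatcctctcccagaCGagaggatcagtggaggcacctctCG
Gnas, most downstream start, chr2:174329756-174330055, plus strand: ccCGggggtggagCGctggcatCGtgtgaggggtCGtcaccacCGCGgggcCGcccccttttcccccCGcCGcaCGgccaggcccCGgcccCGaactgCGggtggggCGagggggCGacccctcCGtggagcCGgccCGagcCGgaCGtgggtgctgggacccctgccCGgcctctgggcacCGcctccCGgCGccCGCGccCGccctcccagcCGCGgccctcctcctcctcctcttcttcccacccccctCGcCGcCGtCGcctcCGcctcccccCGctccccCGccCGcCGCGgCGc
Dlk1, chr12:109452573-109452872, plus strand: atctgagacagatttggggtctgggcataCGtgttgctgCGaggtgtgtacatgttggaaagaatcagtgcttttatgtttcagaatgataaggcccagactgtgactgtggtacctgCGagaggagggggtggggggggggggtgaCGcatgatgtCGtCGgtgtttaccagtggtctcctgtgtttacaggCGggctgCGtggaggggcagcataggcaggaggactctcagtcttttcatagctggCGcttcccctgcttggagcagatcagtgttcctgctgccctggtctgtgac
The upstream Gnas window held 16 CpGs and the downstream window 40, a count that 3.91% of all 32851 windows reached. The Dlk1 window held 9. Windows were found for 30 member genes, and the highest CpG count per gene had a median of 17 over these members, against 8 over all genes with a window. This median was 12.5 for the 18 paternally expressed members with a window and 24 for the 10 maternally expressed members. A highest count per gene favours genes with more windows. Over single windows the median count was 13 for the 48 member windows, against 7 for all windows. In the Meg3 and Peg3 windows, capitals mark the palindrome TGACGTCA, the full cyclic AMP response element, which reads the same on both strands.
Meg3, chr12:109540746-109541045, plus strand: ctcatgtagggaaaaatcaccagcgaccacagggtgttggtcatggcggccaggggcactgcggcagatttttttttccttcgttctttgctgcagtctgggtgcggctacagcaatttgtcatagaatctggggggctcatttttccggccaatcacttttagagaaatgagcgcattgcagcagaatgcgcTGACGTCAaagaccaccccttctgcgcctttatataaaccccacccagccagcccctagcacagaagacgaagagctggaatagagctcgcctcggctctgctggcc
Peg3, chr7:6730370-6730669, minus strand: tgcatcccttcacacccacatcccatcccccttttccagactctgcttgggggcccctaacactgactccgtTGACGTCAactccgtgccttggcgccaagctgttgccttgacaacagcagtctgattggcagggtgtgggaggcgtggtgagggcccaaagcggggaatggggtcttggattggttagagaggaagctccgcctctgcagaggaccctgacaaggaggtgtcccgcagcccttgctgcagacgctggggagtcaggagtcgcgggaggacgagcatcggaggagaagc
The palindrome was searched after these windows had been read. It was found in 1.79% of all windows and in 4 of the 48 member windows, those of Meg3, Peg3, Usp29 and Zdbf2. The windows of Peg3 and Usp29 overlap, since these genes are read in opposite directions from neighbouring starts. The palindrome shown for Peg3 lies in the overlap, so the count of 4 holds this site more than once. A match describes these letters only.

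The 4 libraries held 2225964 to 2934609 reads. A gene was tested when it passed a filter on low counts, which left 12095 genes and 28 members. Of all genes tested 82 were called at an adjusted p under 0.05 by limma with Benjamini-Hochberg adjustment, 9 higher and 73 lower in Eif5 cKO. Leaving out 1 library at a time gave 10 to 346 calls. Eif5 itself had values of 173 and 266 in Eif5 cKO, against 365 and 304 in control, and did not pass (log2 fold change -0.63, SE 0.25, adjusted p = 0.319 by limma). All values are reads divided by a size factor per library. Markers of the labelled tissue were present: all 15 Sertoli and all 9 Leydig markers had reads in each library, and of the 15 meiotic germ cell markers Spo11 and Meiob had 0 reads in 1 or both Eif5 cKO libraries. All 13 meiotic genes tested had negative fold changes, and 11 were called lower. The meiotic list took 0.0636% and 0.0790% of reads in Eif5 cKO replicates 1 and 2, against 0.222% and 0.205% in control replicates 1 and 2. Differentiating spermatogonia markers had 2 of 7 lower calls. The Sertoli list took 4.36% and 3.26% in Eif5 cKO, against 2.49% and 3.22% in control, with 1 of 14 genes called higher. The Leydig list took 0.129% and 0.123% in Eif5 cKO, against 0.0794% and 0.0913% in control, with 0 of 9 genes called and a median log2 fold change of 0.69. The interstitial stroma list had 0 of 10 calls and a median of 0.21. The other 5 marker lists had 0 calls and medians between -0.20 and 0.51.

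**Figure D1:**
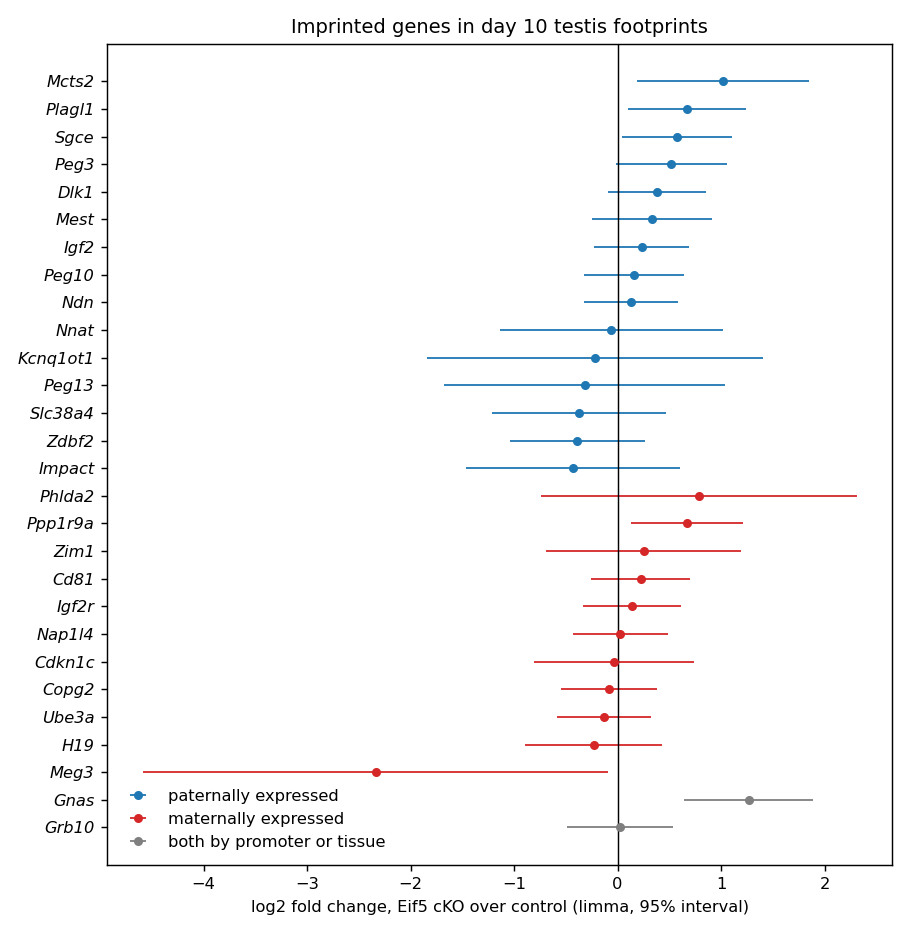
Log2 fold change of each of the 28 tested imprinted genes (rows), Eif5 cKO over control, as points with 95% intervals from limma, coloured by class. Most points lie within 1 log2 unit of 0, Gnas lies at 1.27 with an interval above 0, and Meg3 lies at -2.34 with the widest interval.

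Among the 28 tested imprinted genes, 1 was called between Eif5 cKO and control testes. This was Gnas, higher in Eif5 cKO, where 0.0744% of all genes tested were called higher, 0.604% lower and 0.678% in either direction. Of the 15 paternally expressed members tested, 0 were called, and 3 had an unadjusted p under 0.05, all with higher values in Eif5 cKO (Mcts2, Plagl1 and Sgce). Of the 11 maternally expressed members tested, 0 were called, and 2 had such a p, Ppp1r9a with a positive and Meg3 with a negative fold change. With Gnas, such a p by limma was reached by 6 of the 28 members (21.4%), 5 with higher and 1 with lower values. It was reached by 10.6% of all genes tested, 4.32% with higher and 6.31% with lower values in Eif5 cKO. With 2 samples per group, members that were not called are not shown to be unchanged. On the recovered reads, edgeR (0.761% of all genes called) and DESeq2 (0.463%) also called 0 members of either parental class. DESeq2 gave no adjusted p for Meg3 (log2 fold change -2.60), so it did not decide on that member.

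The median log2 fold change was 0.16 over the paternally expressed members that passed the filter and 0.03 over the maternally expressed ones, against 0.003 over all genes tested. This order was not stable: with no filter on low counts the medians were -0.0095 for paternally and 0.14 for maternally expressed members, and without control replicate 2 they were 0.26 and 0.29. In 9 of the 28 members both Eif5 cKO values lay above both control values, and in 2 (Meg3 and Ube3a) both lay below. Among all genes tested, 40.8% did not overlap, 20% with Eif5 cKO above and 20.9% with Eif5 cKO below. Of the 9, 6 are paternally expressed (Peg3, Dlk1, Plagl1, Mcts2, Sgce and Peg10), 2 are maternally expressed (Phlda2 and Ppp1r9a) and the other is Gnas. Positive fold changes were found for 17 of the 28 members and for 50.3% of all genes tested. In footprints of a bulk tissue, changes in cell number, in RNA per cell and in translation of that RNA cannot be told apart.

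**Figure D2:**
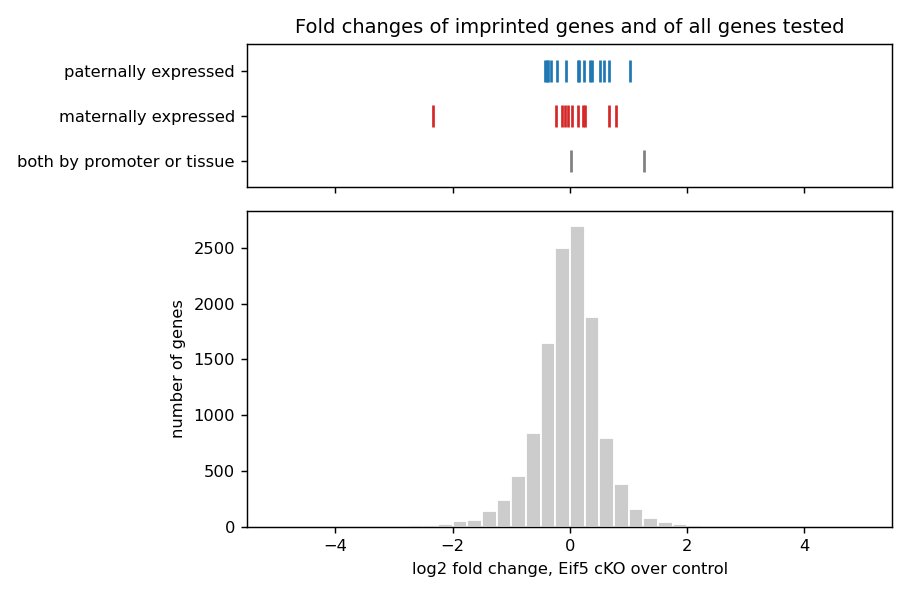
Log2 fold changes of the tested imprinted genes, 1 tick per gene by class (top), above the histogram of all 12095 genes tested in bins of 0.25 (bottom). Most ticks of both parental classes lie in the body of the histogram. Meg3 at -2.34 and the paternally expressed Mcts2 at 1.02 lie farther out, and Gnas is the tick at 1.27.

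The summed reads of the paternally expressed members took 0.179% and 0.187% of the libraries in Eif5 cKO replicates 1 and 2, against 0.150% and 0.160% in control replicates 1 and 2. The groups did not overlap. For the maternally expressed members the shares were 0.232% and 0.229% in Eif5 cKO, against 0.212% and 0.231% in control, and the groups overlapped. These shares had no test. Dlk1 and Igf2 together made up most of the paternal sum. Dlk1 held 1626 and 1879 of 4103 and 5209 reads in Eif5 cKO replicates 1 and 2. In control replicates 1 and 2 Dlk1 held 1462 and 1347 of 4405 and 3562 reads. Igf2 held 769 and 934 reads in Eif5 cKO, against 766 and 737 in control. The separation of the paternal shares therefore need not hold for the other members.

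Gnas (chromosome 2, 174284320 to 174346744, GRCm38) encodes the stimulatory G protein alpha subunit, which couples hormone receptors to cyclic AMP, and also the chromogranin-like Nesp55 and the extra-large form from upstream promoters. Its values were 156 and 145 in Eif5 cKO replicates 1 and 2, against 59.6 and 64.3 in control replicates 1 and 2. The replicates of each group lay close together and the groups were far apart. The underlying reads numbered 137 and 162 in Eif5 cKO, against 73 and 56 in control. Gnas rose 2.41-fold (1.27 on the log2 scale with SE 0.31 and a 95% interval of 0.65 to 1.89, adjusted p = 0.0338 by limma). Positive fold changes were found for 50.3% of all genes tested. They were found for 12 of 14 Sertoli, 9 of 9 Leydig, 10 of 10 interstitial stroma and 7 of 8 macrophage genes. The counts were 4 of 4 for erythroid, 6 of 8 for endothelial and 5 of 9 for undifferentiated spermatogonia genes. For differentiating spermatogonia, myoid and meiotic genes they were 1 of 7, 0 of 7 and 0 of 13. No Sertoli or Leydig marker was at 0 in any library. The part of these lists in the value of Gnas was not tested. Every library was also rescaled by the summed reads of its Sertoli markers, which lowers the median of all genes to -0.45. Gnas then had a log2 fold change of 0.81 and did not pass (adjusted p = 0.542 by limma). Most of that sum was Clu, with 62222 and 53912 of 100161 and 90801 reads in Eif5 cKO replicates 1 and 2. In control replicates 1 and 2 Clu had 43583 and 45865 of 73059 and 71607 reads. The Clu groups overlapped (log2 fold change 0.43, SE 0.50). The call of Gnas was also lost in DESeq2 (adjusted p = 0.0725) and, in limma, without Eif5 cKO replicate 1, control replicate 1 or control replicate 2. Over the fits with 1 library left out the log2 fold change of Gnas was 1.21 to 1.32. Which of its promoters the reads came from was not measured, since the table sums the gene.

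**Figure D3:**
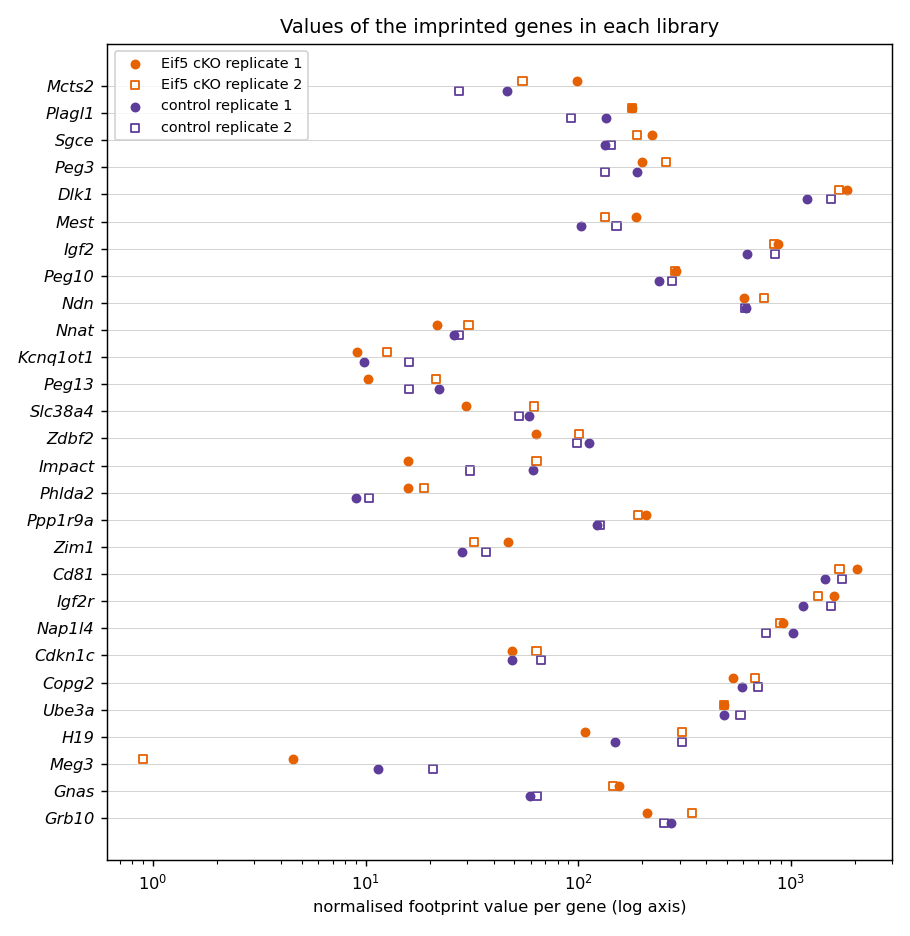
Normalised footprint value of each tested imprinted gene (rows) in each library on a log axis, Eif5 cKO above control within a row, filled circles for replicate 1 and open squares for replicate 2. The Eif5 cKO and control points of Gnas are well apart, those of H19, Igf2r and Cd81 are interleaved, and Meg3 has the lowest Eif5 cKO points.

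Growth factors and their receptors in the imprinted set did not pass. Igf2, the fetal insulin-like growth factor expressed from the paternal copy, had values of 874 and 838 in Eif5 cKO, against 625 and 846 in control. Control replicate 2 lay between the Eif5 cKO samples, so the groups overlapped (log2 fold change 0.23, SE 0.23). Igf2r, the maternally expressed receptor that clears Igf2 to lysosomes, had values of 1596 and 1342 in Eif5 cKO, against 1146 and 1544 in control. Its interval was narrow for these data, -0.34 to 0.61 around a log2 fold change of 0.14. Grb10, an adaptor that dampens insulin and growth factor receptor signalling, had values of 210 and 344 in Eif5 cKO, against 274 and 255 in control. The Eif5 cKO samples lay on either side of both controls (log2 fold change 0.02, SE 0.25).

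Plagl1, a paternally expressed zinc finger transcription factor that in the mouse regulates other imprinted genes, had the same value, 179, in both Eif5 cKO samples, against 135 and 93.0 in control. The groups did not overlap, and the log2 fold change of 0.67 (SE 0.28) had an adjusted p of 0.351 by limma. Its log2 fold change was between 0.40 and 0.94 over the fits with 1 library left out. Of the genes reported as its targets in the mouse, Igf2 is given above, and Cdkn1c, Dlk1 and H19 follow.

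Cdkn1c, the cyclin-dependent kinase inhibitor p57, had values of 48.8 and 63.7 in Eif5 cKO, against 49.0 and 66.6 in control. These values overlapped almost completely (log2 fold change -0.03, SE 0.38). Phlda2, a pleckstrin-homology protein that limits placental growth, had values of 15.9 and 18.8 in Eif5 cKO, against 8.98 and 10.3 in control. Again Eif5 cKO lay above control, but the reads were few (14 and 21 against 11 and 9), and the interval of the log2 fold change was -0.74 to 2.31 around 0.78. Slc22a18, an organic cation transporter of the same cluster, had 8 and 1 reads in Eif5 cKO and 4 and 1 reads in control, and was below the filter.

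Nap1l4 and Cd81 lie at the edges of the Kcnq1ot1 cluster on chromosome 7, where imprinting is known mainly from the placenta. Nap1l4, a nucleosome assembly protein, had values of 920 and 888 in Eif5 cKO, against 1023 and 768 in control, with the Eif5 cKO samples between the controls (log2 fold change 0.03, SE 0.23). Cd81, a tetraspanin, had values of 2047 and 1698 in Eif5 cKO, against 1456 and 1748 in control, and the groups overlapped (0.22, SE 0.24). Kcnq1ot1, the paternally expressed noncoding RNA that silences the cluster, had 8 and 14 reads in Eif5 cKO and 12 and 14 reads in control. At that depth the interval of its log2 fold change was -1.84 to 1.41.

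H19, the maternally expressed noncoding RNA next to Igf2, had values of 108 and 307 in Eif5 cKO, against 149 and 308 in control. The replicates of each group differed by more than the groups did. Its log2 fold change was -0.23 (SE 0.33), and it ranged from -0.98 to 0.52 with 1 library left out. Of the members 5 are noncoding RNAs (H19, Meg3, Kcnq1ot1, Peg13 and Airn), whose reads need not be ribosome footprints.

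The Dlk1-Meg3 cluster on chromosome 12 held the lowest fold change among the members beside a paternally expressed partner with a positive one. Meg3 (109540996 to 109571729), a maternally expressed long noncoding RNA, had values of 4.54 and 0.897 in Eif5 cKO, against 11.4 and 20.7 in control. These were 4 and 1 reads in Eif5 cKO, against 14 and 18 reads in control, and the gene passed the filter through its control libraries alone. Both Eif5 cKO values were below both control values, yet Meg3 did not pass: the difference was -2.34 on the log2 scale (SE 1.11, adjusted p = 0.444 by limma, 95% interval -4.58 to -0.09). Dlk1 (109452485 to 109463336), a transmembrane protein related to Notch ligands that is expressed in fetal and progenitor tissues, had values of 1847 and 1686 in Eif5 cKO, against 1193 and 1546 in control. Both Eif5 cKO samples lay above both controls, and the log2 fold change was 0.38 (SE 0.23, adjusted p = 0.600 by limma). It was 0.19 without control replicate 1 and 0.56 without control replicate 2, and -0.082 after scaling on the Sertoli markers. A test of the difference between Dlk1 and Meg3 was not run.

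Meg3 is followed on the maternal copy by further noncoding RNAs, and rows for these were looked up after the table had been seen. Rian, a host of small nucleolar RNAs, had values of 15.9 and 48.4 in Eif5 cKO, against 26.1 and 26.4 in control, so the Eif5 cKO samples lay on either side of both controls. Mir379, a microRNA gene of the same cluster, had 8 and 16 reads in Eif5 cKO and 6 and 10 reads in control. Neither passed (log2 fold change 0.09, SE 0.55, for Rian and 0.54, SE 0.90, for Mir379). The mature sequences (RefSeq, GRCm38.p6, plus strand) of Mir379 and of Mir335, which lies within Mest, are given because these rows sit inside imprinted clusters, with the seed (bases 2 to 8) in capitals.
mmu-miR-379-5p, chr12:109709065-109709085: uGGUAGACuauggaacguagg
mmu-miR-379-3p, chr12:109709102-109709123: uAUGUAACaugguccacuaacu
mmu-miR-335-5p, chr6:30741314-30741336: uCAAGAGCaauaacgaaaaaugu
mmu-miR-335-3p, chr6:30741354-30741375: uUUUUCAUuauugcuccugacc
The 4 seeds differ. A row does not say which arm its reads came from.

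Mest, a paternally expressed hydrolase of mesodermal tissues, had values of 187 and 134 in Eif5 cKO, against 104 and 152 in control, and the groups overlapped (log2 fold change 0.33, SE 0.29). Mir335 had 6 and 11 reads in Eif5 cKO, against 4 and 1 reads in control, and was below the filter. Copg2, a coatomer subunit whose 3' end overlaps Mest by 913 bases, had values of 537 and 682 in Eif5 cKO, against 588 and 700 in control (-0.08, SE 0.23). No source used here states whether strand entered the authors' counting, and reads in such an overlap could not be told apart. The same holds for Igf2r and Airn, the paternally expressed antisense RNA that silences it, which had 3 and 0 reads in Eif5 cKO and 10 and 4 reads in control and was below the filter.

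The Peg10-Sgce cluster on proximal chromosome 6 had 3 tested members, and in each both Eif5 cKO values lay above both control values, as they did in 20% of all genes tested. Sgce and Ppp1r9a had an unadjusted p under 0.05 by limma, and Peg10 did not (adjusted p = 0.863 by limma). Sgce, epsilon-sarcoglycan of the dystrophin complex, had values of 223 and 190 in Eif5 cKO, against 134 and 142 in control (log2 fold change 0.57, SE 0.26, adjusted p = 0.422 by limma). Ppp1r9a, the actin-binding neurabin, had values of 208 and 191 in Eif5 cKO, against 123 and 126 in control (0.67, SE 0.27, adjusted p = 0.320 by limma). For these members the gap between groups was larger than the spread within them, but neither passed. Peg10, a gag-pol-like gene derived from a retrotransposon, had values of 290 and 284 in Eif5 cKO, against 239 and 275 in control (0.16, SE 0.24). Asb4, an ankyrin repeat protein of the same cluster, had 12 and 2 reads in Eif5 cKO and 8 and 0 reads in control, and was below the filter.

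Zinc finger members of the Peg3 cluster did not pass. Peg3, a paternally expressed zinc finger protein, had values of 199.9 and 259 in Eif5 cKO, against 189 and 133 in control. Both Eif5 cKO samples exceeded both controls (log2 fold change 0.52, SE 0.26, adjusted p = 0.489 by limma). Zim1, its maternally expressed neighbour, had values of 46.6 and 32.3 in Eif5 cKO, against 28.6 and 36.7 in control (0.25, SE 0.46), and the groups overlapped. Zdbf2, a zinc finger gene of chromosome 1, had values of 63.6 and 101 in Eif5 cKO, against 113 and 98.7 in control. Eif5 cKO replicate 2 lay between the controls (-0.39, SE 0.32).

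Of the Snrpn cluster, the region lost in Prader-Willi syndrome in humans, Ndn and Ube3a were the members with enough reads to test. Ndn, a MAGE family growth suppressor, had values of 606 and 748 in Eif5 cKO, against 615 and 612 in control, so Eif5 cKO replicate 1 lay just under both controls (log2 fold change 0.13, SE 0.22). Ube3a, a ubiquitin ligase imprinted in neurons, had values of 486 and 487 in Eif5 cKO, against 488 and 581 in control. The groups did not overlap, but control replicate 1 lay close to the Eif5 cKO samples (-0.13, SE 0.23). Snrpn, which encodes a spliceosomal Sm protein, had 0 and 6 reads in Eif5 cKO and 15 and 0 reads in control. Its transcript also carries the Snurf reading frame, the annotated spans share 22705 bases, and how reads on shared exons were counted is not given in the sources used here. The row is therefore no measure of that transcript. Peg12, a Frat family gene, had 2 and 3 reads in Eif5 cKO and 1 and 5 reads in control. Mkrn3, a ubiquitin ligase that holds back puberty, had 1 and 0 reads in Eif5 cKO and 3 and 8 reads in control. None of these 3 passed the filter.

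Imprinted genes that arose as small inserts within other genes gave mixed values. Mcts2, a retrogene inside an intron of H13 that encodes a translation re-initiation factor, had values of 98.8 and 54.7 in Eif5 cKO, against 46.5 and 27.5 in control. Eif5 cKO lay above control throughout, but the spread within each group was wide (log2 fold change 1.02, SE 0.41, adjusted p = 0.330 by limma). Its fold change was 0.60 when Eif5 cKO replicate 1 was left out, 0.65 when control replicate 2 was, and 1.44 when Eif5 cKO replicate 2 was. Its parent gene Mcts1, with which it may share reads, had values of 45.4 and 37.7 in Eif5 cKO, against 26.1 and 42.5 in control (0.30, SE 0.46). Nnat, a small membrane proteolipid within Blcap, had values of 21.6 and 30.5 in Eif5 cKO, against 26.1 and 27.5 in control (-0.06, SE 0.53). Peg13, a noncoding RNA within Trappc9, had 9 and 24 reads in Eif5 cKO and 27 and 14 reads in control (-0.32, SE 0.67). The Nnat and Peg13 groups overlapped.

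Impact and Slc38a4 take part in the response to amino acids. Impact, which restrains the translation kinase GCN2, had values of 15.9 and 63.7 in Eif5 cKO, against 61.2 and 31.0 in control. The 2 Eif5 cKO samples lay on either side of both controls, and the log2 fold change of -0.43 (SE 0.51) ranged from -1.40 to 0.54 with 1 library left out. Slc38a4, a neutral amino acid transporter, had values of 29.5 and 61.9 in Eif5 cKO, against 58.8 and 52.8 in control (-0.37, SE 0.42). Here too Eif5 cKO replicate 1 was low and replicate 2 was above both controls.

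Single libraries moved several of these fold changes by more than 1.5 times. With 1 library left out the log2 fold change ran from 0.016 to 0.45 for Igf2, from 0.063 to 0.61 for Mest, from 0.27 to 0.77 for Peg3 and from 0.059 to 0.26 for Peg10. It ran from 0.090 to 0.36 for Cd81, from -0.25 to -0.0039 for Ube3a and from -0.72 to -0.056 for Zdbf2. None of these members passed in any of those fits.

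Among the members, standard errors were mostly larger at low reads. The fit ties the variance of a gene to its mean value, so part of this was set by the fit. The 10 tested members with 1000 reads or more in total had a standard error of at most 0.25 on the log2 scale, and the largest standard error, 1.11, was that of Meg3. For 13 of the 28 members the 95% interval lay within -1 and 1. These intervals rest mostly on variance pooled over genes and need not show a member's own spread. H19 is among the 13, although its values were 108 and 307 in Eif5 cKO and 149 and 308 in control. A 2-fold difference is therefore not excluded for each of them. For the other members a 2-fold difference lay inside the interval at this depth.

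Other imprinted genes were read from a list of 54, of which 36 had a row and 32 were tested. Of these 0 were called, and 3 had an unadjusted p under 0.05. Sfmbt2, a Polycomb group protein imprinted in extraembryonic tissue, had values of 27.3 and 26.9 in Eif5 cKO, against 90.6 and 58.5 in control, with no overlap (log2 fold change -1.39, SE 0.42, adjusted p = 0.134 by limma). Blcap, the host gene of Nnat, had values of 20.4 and 10.8 in Eif5 cKO, against 29.4 and 47.1 in control (-1.27, SE 0.57, adjusted p = 0.406 by limma), with a range of -1.70 to -0.83 when 1 library was left out. Axl, a receptor tyrosine kinase, had values of 3096 and 1803 in Eif5 cKO, against 1336 and 1916 in control, and the groups overlapped (0.56, SE 0.26). The fold change of Axl was 0.17 with Eif5 cKO replicate 1 left out, 0.30 with control replicate 1 left out and 0.95 with Eif5 cKO replicate 2 left out. The median of this list was 0.13, with 21 positive and 11 negative fold changes. Dcn stands both in this list and among the stroma markers.

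Factors that set or keep imprints (DNA methyltransferases, zinc finger proteins that guard methylation, and chromatin modifiers) were read from a list of 32, of which 28 were tested. Their median log2 fold change was -0.16, with 8 positive and 20 negative fold changes and 0 calls. Ctcfl, the testis paralog of the insulator protein CTCF, had values of 4.54 and 7.18 in Eif5 cKO, against 50.6 and 34.4 in control. The groups were far apart and the gene passed the filter through its control libraries alone (log2 fold change -2.67, SE 0.68, adjusted p = 0.052 by limma). Its reads numbered 4 and 8 in Eif5 cKO, against 62 and 30 in control. The alternatives reuse the same libraries and add no independent support. Ctcfl was called in edgeR (adjusted p = 0.0270) and, just under the threshold, in DESeq2 (adjusted p = 0.04999). Ctcfl was not called with pseudocount 0.5 (adjusted p = 0.060 by limma). With 1 library left out its adjusted p by limma lay between 0.00251 and 0.800. Ctcfl is expressed in germ cells, and the meiotic germ cell list was lower in the same libraries, with all 13 tested genes below their control values. The part of that list in the value of Ctcfl was not tested. Hells, a chromatin remodeller needed for DNA methylation, had values of 720 and 893 in Eif5 cKO, against 1466 and 1295 in control, with no overlap (-0.78, SE 0.23, adjusted p = 0.109 by limma). Setdb1, which places repressive histone methylation at imprinted regions, had values of 318 and 321 in Eif5 cKO, against 459 and 416 in control (-0.45, SE 0.23).

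**Figure D4:**
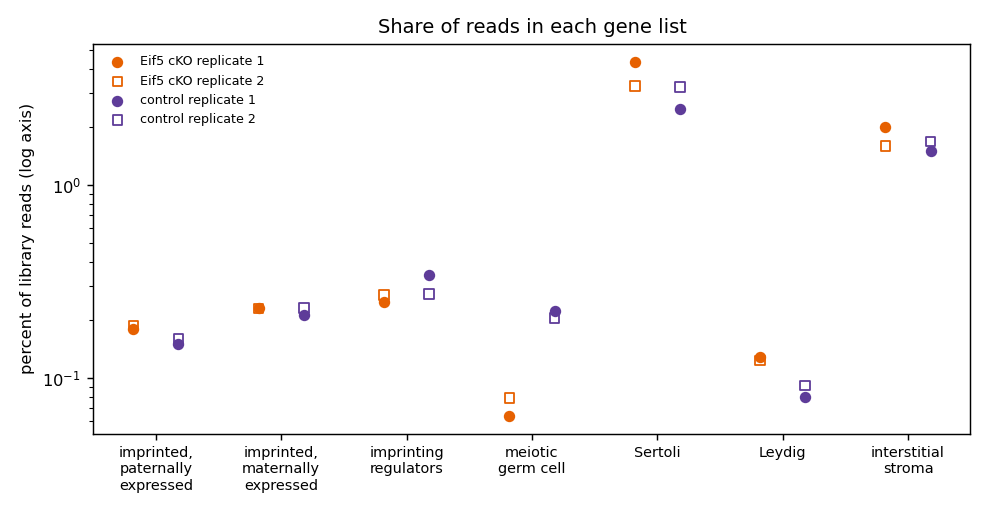
Percent of library reads (log axis) summed over each gene list, Eif5 cKO left of control within a list, filled circles for replicate 1 and open squares for replicate 2. The paternally and maternally expressed classes lie between 0.150% and 0.232% in every library, while the meiotic list lies at 0.0636% and 0.0790% in Eif5 cKO, against 0.222% and 0.205% in control.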

How the data were processed

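Ribosome footprints were obtained from testes with a commercial kit, per the labels' protocols. Bowtie2, STAR, featureCounts and the build GRCm38 were named, without versions or settings, in the submitters' processing notes. The deposited columns were named raw counts but were not whole, so the unit was taken as a normalised signal made by the authors. Every value was a whole multiple of 1 read per column (100% of values at a relative tolerance of 1e-06), and the library divisors, 0.871 to 1.23, were those that the median-of-ratios method gives on these reads. Columns of other samples numbered 0.

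log2(value + 1) was modelled with limma 3.58.1 (R 4.3.3; lmFit, eBayes with trend), a scale that understates changes of low genes, over genes passing filterByExpr of edgeR 4.0.16 (minimum count 10). Tests were two-sided, with Benjamini-Hochberg adjustment over all 12095 genes. With 2 against 2 samples no permutation p can fall below 0.333, so calls rest on variance pooled over genes. edgeR and DESeq2 1.42.0 were run on the recovered reads. Fits were checked on simulated data. The members and lists were chosen with earlier results of these data known. All members could be named, together with Eif5, the called genes and the 3 genes with the smallest p in the lists of other imprinted genes and of regulators, and up to 2 genes per marker list. Mcts1, Rian, Mir335, Mir379, Dcn, Spo11, Meiob and Clu were named after their values were seen. All 38 members matched the RefSeq table by symbol. Alternatives were other tools, scalings, pseudocounts, filters, a replicate block and leaving out each library.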

Additional observations from a re-analysis of the deposited data

How the results depend on the processing

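Over the 10 alternatives that kept all libraries, 260 of 274 member values kept their direction and their side of the threshold. Meg3 in DESeq2, which had no adjusted p, was counted among these as not called. The call of Gnas was lost in DESeq2 and with scaling on the Sertoli list, where 0 imprinted genes were called. Clu held most of the reads summed for that scaling. The scaling put the median of all genes at -0.45, the paternal median at -0.30 and the maternal median at -0.43. It gave log2 fold changes of -0.24 for Cd81, -0.082 for Dlk1, -0.43 for Grb10, -0.22 for Igf2, -0.32 for Igf2r, -0.12 for Mest, -0.43 for Nap1l4, -0.33 for Ndn, -0.30 for Peg10 and -0.19 for Zim1, all above that median. With library totals Grb10 was at -0.021 and Nap1l4 at -0.017. The paternal median was -0.0095 with no filter, where the maternal median was 0.14, and 0.28 with the stricter filter (50 reads in 2 libraries), where other genes enter. Regulators called numbered 1, Ctcfl, in edgeR, DESeq2, library totals, TMM-scaled reads, Sertoli scaling, pseudocount 4, no filter and the replicate block. The replicate numbers were not shown to pair the samples (correlation of deviations -0.0465). The block gave 100 calls over all genes, against 82 without it, and kept Gnas (adjusted p = 0.0284 by limma).

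With 1 library left out, the lone sample was assumed to vary like the other group. Calls over all genes then ran from 10 to 346, imprinted genes called from 0 to 1 and regulators called from 0 to 1. The paternal median ran from 0.059 to 0.26 and the maternal median from -0.077 to 0.29. Fold changes whose direction changed were -0.25 to 0.18 for Cdkn1c, -0.26 to 0.088 for Copg2, -0.33 to 0.38 for Grb10, -0.98 to 0.52 for H19, -0.077 to 0.35 for Igf2r, -1.40 to 0.54 for Impact, -0.55 to 0.12 for Kcnq1ot1, -0.18 to 0.24 for Nap1l4, -0.019 to 0.29 for Ndn, -0.30 to 0.18 for Nnat, -0.82 to 0.18 for Peg13, -0.89 to 0.15 for Slc38a4 and -0.0043 to 0.51 for Zim1. Why these values moved was not tested. Depth limited the 6 members below the filter and those with few reads, such as Meg3 and Kcnq1ot1.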
